A study of Mus musculus with 12 samples.

Results

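The unfolded protein response and the integrated stress response were followed here through 33 genes in ribosome-bound mRNA from B16F10 and B16F0 melanomas. The genes were chosen by symbol, all 33 were found among the 24421 symbols of the count table, and all 33 passed the filter on low counts that left 13534 genes to test. They comprise 15 chaperones and folding enzymes of the endoplasmic reticulum (ER), 7 genes of ER degradation, 5 stress sensors and transcription factors, and 6 targets of the transcription factor Atf4. The tumours came from B16F10, which the labels call highly metastatic, and B16F0, which they call poorly metastatic, both mouse melanoma lines grown under the skin of C57BL/6 hosts for 12 days. All hosts carried the Rpl22fl/flHA;Cdh5(PAC)-CreERT2 alleles and received tamoxifen, so that the Cdh5 promoter drives the recombinase and endothelial cells add an HA tag to the ribosomal protein Rpl22. Ribosomes were precipitated by that tag for 7 B16F10 and 5 B16F0 libraries, and the labels leave it unsaid whether each library is a different animal. The p-values therefore cover only the spread seen among the 12 libraries, which may be technical. The sources used here do not state the hosts' ages.

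The ER folds secreted and membrane proteins, and chaperones such as Hspa5 (BiP) bind the unfolded ones. When unfolded protein accumulates, the membrane sensors Ern1 (IRE1), Atf6 and Eif2ak3 (PERK) are activated. Ern1 splices the Xbp1 mRNA, Atf6 is cleaved to a transcription factor, and Eif2ak3 phosphorylates the initiation factor eIF2. Spliced Xbp1 and cleaved Atf6 raise chaperone and ER degradation genes. Phosphorylated eIF2 slows general translation and favours translation of Atf4, and other eIF2 kinases that sense amino acid shortage, haem or double-stranded RNA feed into the same step. A count of Atf4, Atf6 or Xbp1 mRNA reads neither translation, cleavage nor splicing.

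The libraries held 5322510 to 20569186 counts in B16F10 and 10753106 to 17381336 counts in B16F0, and were sequenced on 3 lanes (1, 2 and 6) according to their names. Lane 1 carried 2 B16F10 and 2 B16F0 libraries, lane 2 carried 2 B16F10 and 1 B16F0 libraries, and lane 6 carried 3 B16F10 and 2 B16F0 libraries. Levels are CPM, the counts of a gene relative to a common library total after TMM scaling, which aligns most genes between libraries. The precipitates were not purely endothelial. Summed over 20 pan-endothelial markers they held 776 to 5072 CPM in B16F10 and 1089 to 5479 CPM in B16F0, led by the receptor Kdr. Summed over 19 melanocytic markers they held 13769 to 26271 CPM in B16F10 and 18744 to 29044 CPM in B16F0, led by the pigment enzyme Dct. The summed levels of 10 fibroblast and mural markers were 172 to 2208 CPM in B16F10 and 166 to 854 CPM in B16F0, those of 9 leukocyte markers were 18.6 to 128 CPM in B16F10 and 37.9 to 127 CPM in B16F0, and those of 6 plasma cell markers were 32.1 to 74.3 CPM in B16F10 and 36.6 to 67.7 CPM in B16F0. The plasma cell sum came mostly from Sdc1, Prdm1 and Irf4. Its other markers Jchain, Mzb1 and Tnfrsf17 reached at most 0.90, 0.80 and 0.31 CPM in any library. No marker of these lists was at 0 in every library. In such a mixture fewer cells of a type and less RNA per cell cannot be told apart, and a stress gene may come from tumour or endothelial ribosomes.

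The promoters show which of the 33 genes carry the known sequence elements of the response. The ER stress response element, which reads CCAAT, any 9 bases and then CCACG, is bound by Atf6 together with the factor NF-Y. Element II, which reads ATTGG, any 1 base and then CCACG, is bound by Atf6 and by Xbp1, and TGATGNAA is the core of elements bound by Atf4 with C/EBP partners. Both strands of the 250 bases before each RefSeq start were searched in the build GRCm38.p6, and no match of one element overlapped a match of another. RefSeq windows were matched for 29 of the 33 genes, without Hyou1, Manf, Derl1 and Atf6. The ER stress response element stood in 9 of 29 genes, which is 31.0%, against 35 of the 27025 symbols with a window, which is 0.13%. By role, it stood in 7 of 13 chaperones, 2 of 6 ER degradation genes, 0 of 4 sensors and factors and 0 of 6 Atf4 targets. The genes were chosen as members of this response, so their higher share is no independent test. A match describes letters in the window and shows no binding in these tumours. All 10 matches are printed because the element is far more frequent in these promoters than in all, with 15 bases on each side, in the direction of the gene, with the element in capitals. An element that reads on the opposite strand begins with CGTGG.
Hspa5, chr2:34772010-34772058, plus strand: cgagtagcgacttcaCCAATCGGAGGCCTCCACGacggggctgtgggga
Hsp90b1, chr10:86705623-86705671, minus strand: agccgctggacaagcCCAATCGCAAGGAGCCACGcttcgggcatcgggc
Hsp90b1, chr10:86705518-86705566, minus strand: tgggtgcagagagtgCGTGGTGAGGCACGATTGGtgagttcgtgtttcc
Dnajc3, chr14:118937812-118937860, plus strand: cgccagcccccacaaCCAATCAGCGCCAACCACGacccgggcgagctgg
Calr, chr8:84847060-84847108, minus strand: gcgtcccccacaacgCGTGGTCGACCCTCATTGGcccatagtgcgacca
Canx, chr11:50325785-50325833, minus strand: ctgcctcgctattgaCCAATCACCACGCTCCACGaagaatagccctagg
Pdia6, chr12:17266476-17266524, plus strand: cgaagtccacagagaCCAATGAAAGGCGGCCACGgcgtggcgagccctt
Creld2, chr15:88819505-88819553, plus strand: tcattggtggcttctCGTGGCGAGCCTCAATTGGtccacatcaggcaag
Syvn1, chr19:6046517-6046565, plus strand: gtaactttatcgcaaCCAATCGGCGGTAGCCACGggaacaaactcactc
Derl3, chr10:75893227-75893275, plus strand: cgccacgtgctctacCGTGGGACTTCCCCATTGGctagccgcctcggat

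The whole 250-base window is printed for Hspa5, the chaperone against which the other genes are set below, with its 1 match in capitals.
Hspa5, chr2:34771840-34772089, plus strand: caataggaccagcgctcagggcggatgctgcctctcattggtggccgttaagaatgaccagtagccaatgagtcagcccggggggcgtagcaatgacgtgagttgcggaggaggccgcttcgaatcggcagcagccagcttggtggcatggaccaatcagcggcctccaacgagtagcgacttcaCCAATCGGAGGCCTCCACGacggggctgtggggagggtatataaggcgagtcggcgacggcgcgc

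Element II matched only Herpud1 among the 29 genes, which is 3.45%, against 10 of 27025 symbols, which is 0.037%. The TGATGNAA core matched Herpud1, Asns and Chac1, which is 10.3%, against 1056 of 27025 symbols, which is 3.91%. These matches are printed with 15 bases on each side, because Asns and Chac1 are the 2 Atf4 targets with the core in the window. Herpud1 has the element II match first and the core second.
Herpud1, chr8:94386362-94386402, plus strand: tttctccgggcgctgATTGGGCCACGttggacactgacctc
Herpud1, chr8:94386302-94386339, plus strand: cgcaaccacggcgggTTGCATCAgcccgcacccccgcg
Asns, chr6:7693210-7693247, minus strand: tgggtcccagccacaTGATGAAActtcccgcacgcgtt
Chac1, chr2:119351034-119351071, plus strand: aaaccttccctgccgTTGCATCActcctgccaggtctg

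Per length, the 5 most abundant of the 33 genes were chaperones, followed by Atf4. Levels per kilobase are CPM divided by the exon length in the GENCODE M21 annotation, as mean ± SD over all 12 libraries. Hsp90b1 (the ER paralogue of Hsp90) had 871 ± 317 CPM per kilobase, the lectin chaperone Canx 499 ± 184, the disulfide isomerase P4hb 477 ± 132 and Hspa5 451 ± 211. The least abundant chaperone was Dnajb9, a co-chaperone of Hspa5, at 18.2 ± 9.0 CPM per kilobase. Neighbours in the order from Canx to Hspa5 lay within each other's SD.

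Among the ER degradation genes, Edem1, which routes misfolded glycoproteins to degradation, was highest at 109 ± 42.6 CPM per kilobase. Derl3, a derlin of the export channel, was lowest at 0.890 ± 0.778 CPM per kilobase. Atf4 led the sensors and factors at 308 ± 92.2 CPM per kilobase, and Ern1 was lowest at 7.56 ± 2.01. The Atf4 targets extended from 82.2 ± 39.4 CPM per kilobase for Ddit3 (CHOP, a factor linked to stress-induced death) to 4.30 ± 1.56 for Sesn2, a sestrin that restrains mTORC1. Between them lay Asns (asparagine synthetase) at 61.0 ± 33.3, Trib3 (a pseudokinase) at 23.8 ± 11.9, Ppp1r15a (GADD34, which returns eIF2 to its unphosphorylated form) at 12.9 ± 4.01 and Chac1 (an enzyme that degrades glutathione) at 8.22 ± 3.67.

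**Figure D1:**
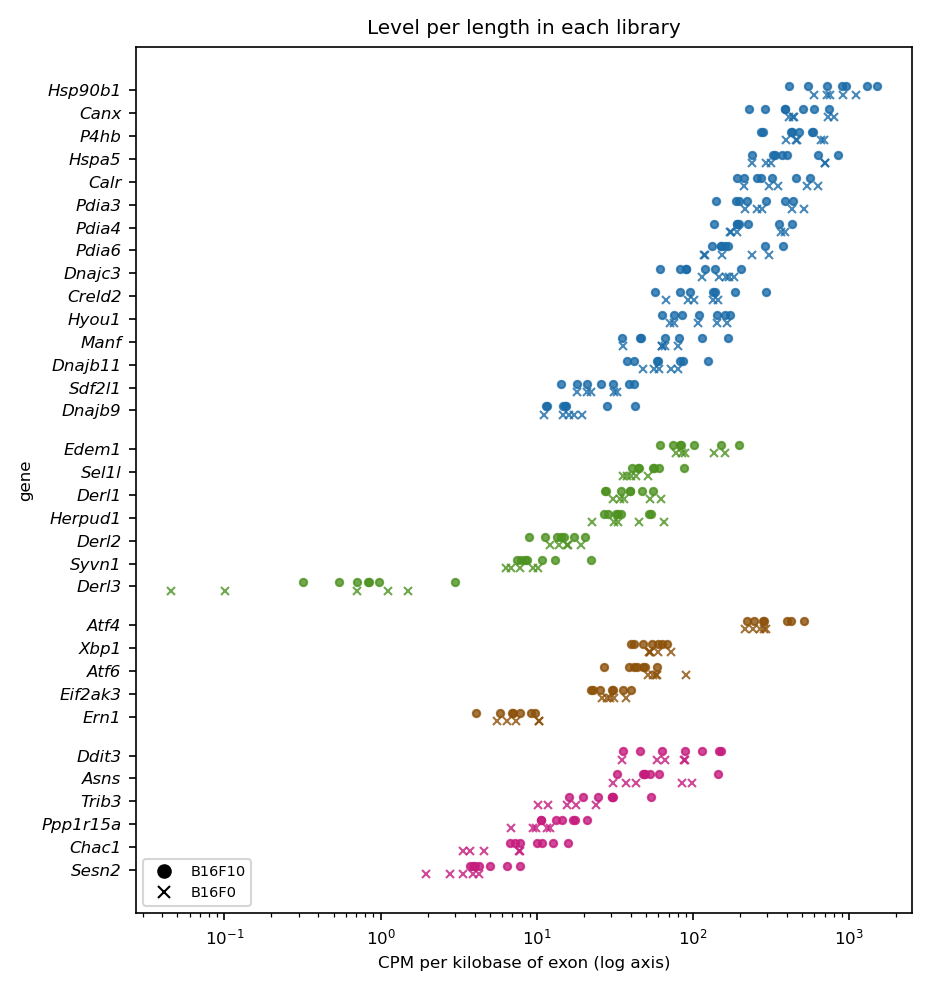
CPM per kilobase of exon on a log axis for the 33 genes (rows, grouped and coloured by role), with 1 point per library, circles for 7 B16F10 and crosses for 5 B16F0 libraries. Hsp90b1 is at the top of the chaperones with a mean of 871 CPM per kilobase and Derl3 at the bottom of the ER degradation genes with 0.890, and circles and crosses overlap in every row.

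The comparison of the lines asks whether the response differs between highly and poorly metastatic tumours. With lane in the model, edgeR called none of the 33 genes at an adjusted p under 0.05 (adjusted p from 0.110 to 0.999), whereas 2.77% of all 13534 genes did. All 6 Atf4 targets had a positive log2 fold change of B16F10 over B16F0, with a median of 0.56, against a median of 0.019 over all genes tested. At an unadjusted p under 0.05, 4 of the 33 genes were higher and 1 was lower, beside 7.13% of all genes higher and 7.71% lower. The 4 higher ones were the Atf4 targets Chac1, Sesn2, Ppp1r15a and Trib3, and the lower one was Atf6. DESeq2 called 1 of the 33, Chac1 (log2 fold change 0.82, adjusted p of 0.0313), and 3.02% of all genes higher. The groups overlapped for each of the 33 genes. The share of all genes that overlapped is not given here, so this is not read as particular to the 33.

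Chac1 (chr2:119351229-119354381, plus strand, GRCm38) had 11.1 CPM as its lowest, 16.5 as its median and 26.0 as its highest value in B16F10, against 12.8, 7.56, 6.14, 12.6 and 5.55 CPM in B16F0. Only 2 B16F0 libraries, replicates 1 and 4, reached the lower part of the B16F10 range. It averaged 16.7 ± 5.36 CPM in B16F10 and 8.93 ± 3.52 CPM in B16F0 (SD, n = 7 and 5), a log2 fold change of 0.82 ± 0.25 (SE) with an edgeR adjusted p of 0.110.

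Sesn2 (chr4:132492032-132510501, minus strand) had 13.1 CPM as its lowest, 14.7 as its median and 27.1 as its highest value in B16F10, against 13.6, 6.83, 9.72, 14.8 and 11.7 CPM in B16F0. The 3 B16F10 libraries of lane 6 stood above all others. The highest was replicate 5, in which 31.4% of the counts were on the ribosomal Rn45s. Its log2 fold change was 0.57 ± 0.18 with an edgeR adjusted p of 0.128.

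Ppp1r15a (chr7:45522916-45526268, minus strand) had 31.2 CPM as its lowest, 43.0 as its median and 61.5 as its highest value in B16F10, against 34.3, 20.1, 29.1, 35.9 and 27.98 CPM in B16F0. B16F0 replicates 1 and 4 lay inside the B16F10 range and the other 3 below it. Its log2 fold change was 0.55 ± 0.19 with an edgeR adjusted p of 0.175.

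Trib3 (chr2:152337422-152344032, minus strand) had 32.4 CPM as its lowest, 61.3 as its median and 109 as its highest value in B16F10, against 48.3, 31.9, 24.0, 36.3 and 20.6 CPM in B16F0. The highest value was that of B16F10 replicate 7, and the 2 lowest B16F10 libraries were both from lane 2. It averaged 59.5 ± 24.8 CPM in B16F10 and 32.2 ± 10.9 CPM in B16F0, a log2 fold change of 0.82 ± 0.29 with an edgeR adjusted p of 0.193.

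For the remaining targets the edgeR unadjusted p was above 0.05. Ddit3 had 31.9 CPM as its lowest, 79.3 as its median and 136 as its highest value in B16F10, against 59.4, 31.4, 52.5, 79.7 and 78.2 CPM in B16F0. Its log2 fold change was 0.32 ± 0.23 (edgeR adjusted p of 0.577), and all B16F0 libraries but the lowest lay inside the B16F10 range. Asns had 70.2 CPM as its lowest, 106 as its median and 314 as its highest value in B16F10, against 213, 185, 80.8, 93.3 and 66.7 CPM in B16F0. B16F10 replicate 3 and B16F0 replicates 1 and 2 were far above the other libraries, and the log2 fold change was 0.13 ± 0.34.

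**Figure D2:**
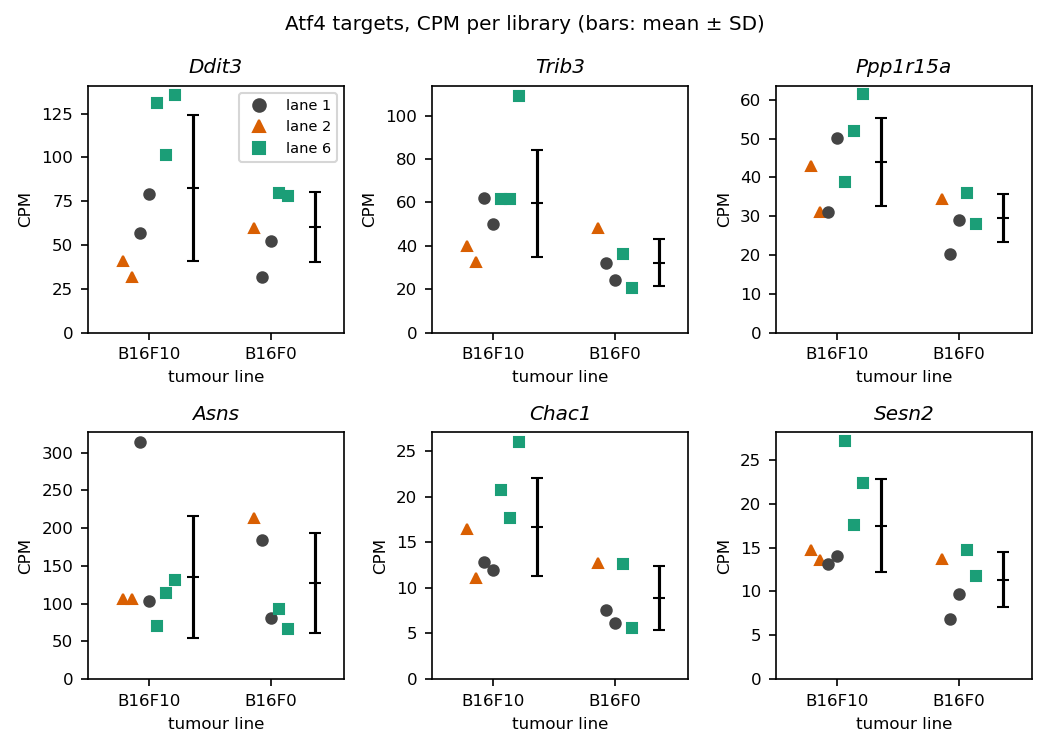
CPM of the 6 Atf4 targets (1 panel each, vertical axis from 0) in each library, B16F10 left and B16F0 right, with lanes 1, 2 and 6 as circles, triangles and squares and bars for mean ± SD. Chac1 averaged 16.7 CPM in B16F10 and 8.93 CPM in B16F0 with overlapping points, and 1 B16F10 library at 314 CPM stands apart in Asns.

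The chaperones showed no shared direction between the lines. Of 15, 9 had a positive and 6 a negative log2 fold change, with a median of 0.051 and a range from -0.53 for Dnajc3, an inhibitor of eIF2 kinases, to 0.27 for Creld2, a secreted folding factor. The 5 negative ones besides Dnajc3 were Canx (-0.33), Pdia3 (-0.31), Calr (-0.30), P4hb (-0.29) and Pdia4 (-0.03), each with an SE of 0.23 or more. The positive ones included Dnajb9 (0.24), Pdia6 (0.20), Manf (0.20), Sdf2l1 (0.13), Dnajb11 (0.08) and Hyou1 (0.0014). Hspa5 had 894, 1258, 3197, 1217, 1508, 1405 and 2379 CPM in B16F10 replicates 1 to 7, against 2640, 2634, 1111, 894 and 1193 CPM in B16F0 replicates 1 to 5. It averaged 1694 ± 807 CPM in B16F10 and 1695 ± 868 CPM in B16F0, so the spread within each line was far larger than the difference. Hsp90b1 averaged 2564 ± 1111 CPM in B16F10 and 2319 ± 552 CPM in B16F0. Its lowest, median and highest values were 1173, 2553 and 4255 CPM in B16F10, against 2592, 3122, 2047, 1690 and 2146 CPM in B16F0, and the B16F0 range lay inside the B16F10 range. Dnajb9 ranged from 28.1 to 106 CPM with a median of 37.3 in B16F10, against 42.9, 36.5, 27.5, 47.7 and 39.7 CPM in B16F0, with B16F10 replicates 6 and 7 above the rest.

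The ER degradation genes had log2 fold changes with a median of -0.025, 3 positive and 4 negative, and none reached an unadjusted p of 0.05. The adaptor Sel1l had a log2 fold change of 0.41 and the ubiquitin ligase Syvn1 one of 0.39. Herpud1 (-0.03) and the derlins Derl1 (-0.14) and Derl2 (-0.10) were closer to 0. Edem1 had 356 CPM as its lowest, 488 as its median and 1150 as its highest value in B16F10, against 519, 455, 495, 796 and 941 CPM in B16F0. Derl3 was near the lower end of detection, with 0.424 CPM as its lowest, 1.10 as its median and 3.94 as its highest value in B16F10, against 0.134, 0.0605, 0.938, 1.47 and 1.99 CPM in B16F0. The highest Derl3 value was that of B16F10 replicate 5, the library richest in Rn45s. The Derl3 log2 fold change of 0.65 had an SE of 0.64.

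Of the sensors and factors, Atf6 (chr1:170704674-170867771, minus strand) had 195 CPM as its lowest, 316 as its median and 427 as its highest value in B16F10, against 658, 403, 375, 422 and 429 CPM in B16F0. All B16F10 libraries but the highest lay below the B16F0 range, and B16F0 replicate 1 lay far above every other library. It averaged 318 ± 71.6 CPM in B16F10 and 457 ± 114 CPM in B16F0, a log2 fold change of -0.53 ± 0.20 with an edgeR adjusted p of 0.227. Atf4 had 383 CPM as its lowest, 490 as its median and 888 as its highest value in B16F10, against 462, 372, 419, 495 and 510 CPM in B16F0. The 3 B16F10 libraries of lane 6 exceeded all B16F0 libraries, and the highest was replicate 5, with 31.4% of its counts on Rn45s. The Atf4 log2 fold change was 0.31 ± 0.16 (edgeR adjusted p of 0.390). Ern1 had 33.3 CPM as its lowest, 57.7 as its median and 80.2 as its highest value in B16F10, against 52.5, 45.4, 59.9, 84.0 and 85.0 CPM in B16F0, with a log2 fold change of -0.17. Xbp1 and Eif2ak3 had log2 fold changes of -0.11 and -0.04.

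**Figure D3:**
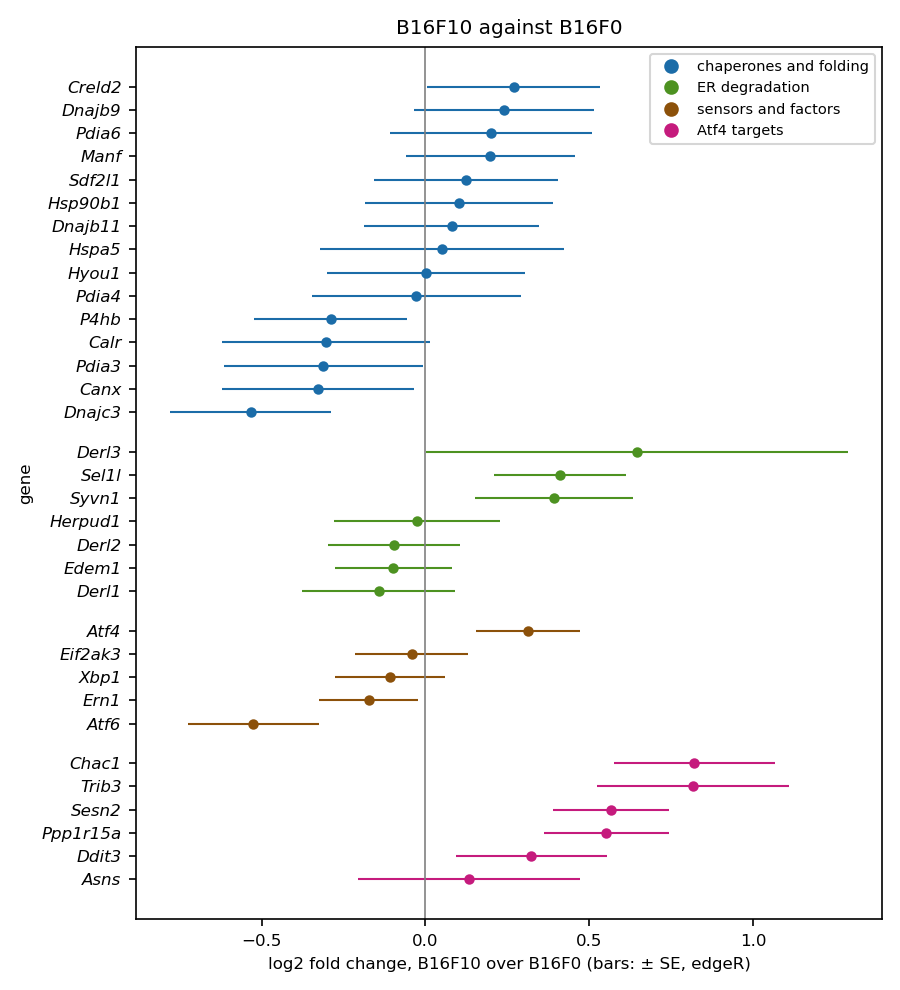
Log2 fold change of B16F10 over B16F0 with its SE (horizontal axis) for the 33 genes (rows, grouped and coloured by role). The 6 Atf4 targets lie right of 0 with a median of 0.56, the chaperones lie on both sides with a median of 0.051, and no gene passed an adjusted p of 0.05.

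The absence of calls among the Atf4 targets depended on the model. With the library name prefix in place of the lane, 5 of the 33 genes were called, all 5 higher and all Atf4 targets, beside 2.4% of all genes called higher. These were Trib3 (log2 fold change 1.24, edgeR adjusted p of 0.0114), Chac1 (1.06, 0.0375), Sesn2 (0.74, 0.029), Ppp1r15a (0.69, 0.0364) and Ddit3 (0.67, 0.0108). Each prefix on lane 2 belongs to 1 line alone, so the estimate then rests on the libraries of the other lanes. With limma-voom and quality weights, 5 of the 33 were called higher, namely Trib3, Chac1, Ppp1r15a, Sesn2 and Sel1l, beside 2.46% of all genes. Without lane 2, Trib3 alone was called (log2 fold change 1.25, edgeR adjusted p of 0.0431), as it was without B16F0 replicate 1 (1.23, 0.0255). Over all genes, 177 and 249 were called in these settings, in either direction. Asns alone was called with the melanocytic score as a covariate (0.88, 0.0224), beside 589 genes over all. These single calls are not read as particular to the 33.

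Within lanes, the 6 Atf4 targets were all higher in B16F10 on lane 1 (median difference 0.72 on the log2 scale) and on lane 6 (0.69), and 3 of 6 were higher on lane 2 (median -0.19). The chaperones were higher in B16F10 for 9 of 15 genes on lane 1 (median 0.097), 0 of 15 on lane 2 (-1.04) and 14 of 15 on lane 6 (0.51). Over all 33 genes the shares higher in B16F10 were 69.7% on lane 1, 12.1% on lane 2 and 84.8% on lane 6, beside 54.1%, 48.9% and 49.2% of all genes tested on the same lanes. Lane 2 holds a single B16F0 library, with 2640 CPM of Hspa5. Its 2 B16F10 libraries had 894 and 1258 CPM, and the other 9 libraries ranged from 894 to 3197 CPM. Summed over the 10 fibroblast and mural markers, those 2 libraries held 1840 and 2208 CPM, against 299.6 CPM in the B16F0 library of that lane and 166 to 1066 CPM in the other 9 libraries. They also held the most counts on 1501 olfactory, vomeronasal and taste receptor genes, which these tissues should hardly express, at 960 and 778 CPM, against 10.6 CPM in the B16F0 library of that lane and 27.1 to 340 CPM in the other 9 libraries. The part of these markers and receptor counts in the lane differences was not tested. A test of whether the difference between the lines varied with lane, chosen after seeing the data, called 0 of 13534 genes in edgeR, with 1039 genes and 5 of the 33 at an unadjusted p under 0.05.

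Other genes of the pathway, listed by function, held few calls. Of 33 further Atf4 targets tested, 2 rose in B16F10 and 0 fell, beside 1.3% of all genes called higher. A positive log2 fold change was found for 28 of them, with a median of 0.29, and for 52.5% of all genes. Vldlr, a lipoprotein receptor, had 25.0 CPM as its lowest, 34.1 as its median and 57.2 as its highest value in B16F10, against 22.5, 14.3, 19.4, 14.3 and 10.7 CPM in B16F0, so the groups did not overlap. Its log2 fold change was 1.10 ± 0.26 with an edgeR adjusted p of 0.0461. Cebpb, a transcription factor that pairs with Atf4, averaged 12.0 ± 3.33 CPM in B16F10 and 6.42 ± 1.47 CPM in B16F0, a log2 fold change of 0.96 ± 0.23 with an edgeR adjusted p of 0.0466. Its B16F10 values from 6.83 to 15.6 CPM overlapped the B16F0 values from 4.61 to 8.47 CPM. Both calls were close to the threshold and were lost in 14 of 29 alternative settings for Vldlr and 18 of 29 for Cebpb. In edgeR none was called of 19 further ER folding genes, 20 further ER degradation genes, 11 further sensors and factors or 14 cytosolic heat shock genes, of which 1, 5, 2 and 2 had an unadjusted p under 0.05, beside 14.8% of all genes in either direction. The 10 fibroblast and mural markers all had positive log2 fold changes with a median of 0.80 and none called. Of the 19 melanocytic markers 15 had negative log2 fold changes, with a median of -0.30, and 1 was called, the pigment gene Oca2 at -1.10 ± 0.17 (edgeR adjusted p of 0.00379). The melanocytic score, their mean log2 CPM, was 8.70 ± 0.28 in B16F10 and 9.05 ± 0.21 in B16F0. The part of either cell type in the Atf4 targets' difference was not tested.

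The chaperones varied more between libraries than most genes did. After lane and line were removed, the residual SD of log2 CPM was 0.72 for Hspa5, the 83.2 percentile of all genes, and 0.41 to 0.72 over the chaperones, against a median of 0.36 over all genes. Atf4 was among the steadier genes with a residual SD of 0.22, the 14.6 percentile, and Ern1 had 0.25. Asns had 0.68 and Derl3, at its low counts, 0.93.

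**Figure D4:**
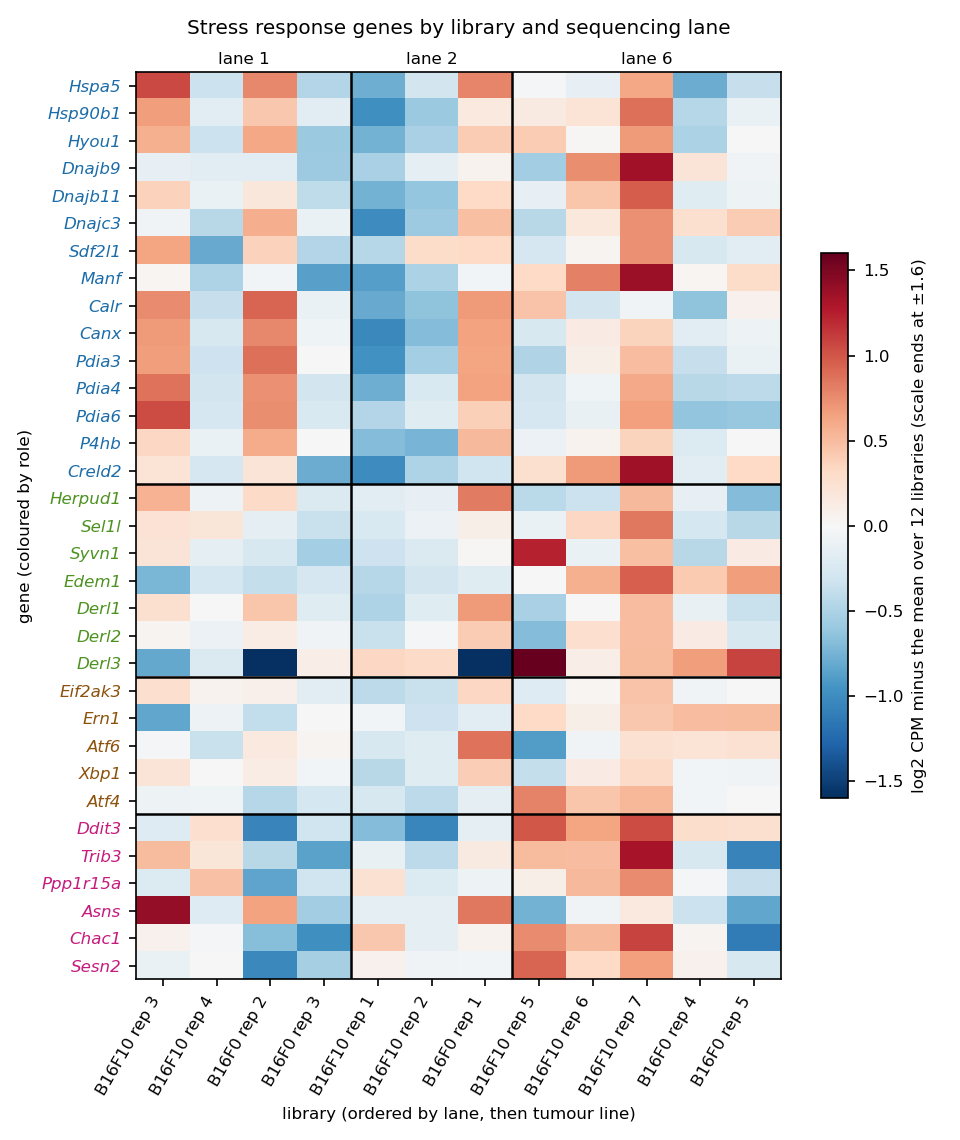
Log2 CPM of the 33 genes (rows, coloured by role) minus their mean over 12 libraries, by library (columns, grouped by lane and, within a lane, B16F10 before B16F0). Above their mean are 13 of 15 chaperones in B16F10 replicate 3, 14 in B16F10 replicate 7 and 13 each in B16F0 replicates 1 and 2, against 0 and 1 in the 2 B16F10 libraries of lane 2, where Hspa5 had 894 and 1258 CPM.

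The genes that moved with Hspa5 between libraries were found with a limma slope of each gene's log2 CPM on that of Hspa5, with lane and line in the model and adjustment over all genes. Of 32 genes, 18 followed Hspa5 (a positive slope with an adjusted p under 0.05) and 0 went against it. Over all genes, 12.5% followed Hspa5 and 1676 of 13533 went against it. The points of these slopes share their libraries and their scaling factors. Followers were 13 of 14 chaperones, 2 of 7 ER degradation genes, 1 of 5 sensors and factors and 2 of 6 Atf4 targets. The slope was 0.83 ± 0.095 (SE) for Pdia4, 0.79 ± 0.093 for the chaperone Hyou1, 0.79 ± 0.101 for Pdia6 and 0.77 ± 0.105 for Pdia3, 3 of which are disulfide isomerases, each with a limma adjusted p of 0.00435. The calcium-binding lectin Calr had 0.76 ± 0.14, the co-chaperone Dnajb11 0.61 ± 0.12, the secreted factor Manf 0.62 ± 0.11 and Sdf2l1, a partner of ER co-chaperones, 0.66 ± 0.13. Dnajb9 was the chaperone that did not pass, with a slope of 0.39 ± 0.20 (adjusted p of 0.165).

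Outside the chaperones, the followers were Herpud1 (slope 0.56), a scaffold of the degradation complex, Derl1 (0.50), Eif2ak3 (0.33), Asns (0.79 ± 0.16, limma adjusted p of 0.0091) and Trib3 (0.57 ± 0.17, adjusted p of 0.0323). Of 22 alternative settings, the Eif2ak3 call was lost in 12 and the Trib3 call in 10, beside at most 4 for each other follower. Xbp1 had a slope of 0.29 and missed the threshold at an adjusted p of 0.0591. Atf4 (0.13), Ddit3 (0.12), Sesn2 (0.065), Ppp1r15a (-0.06) and Edem1 (0.018) had slopes near 0 with adjusted p from 0.391 to 0.931. Of the 8 genes other than Hspa5 with an ER stress response element printed above, 6 followed Hspa5, as did 9 of 20 with a window and no element and 3 of 4 with no window. The 6 were all chaperones, and the ER degradation genes Syvn1 and Derl3 did not follow. Among chaperones with a window and no element, Dnajb11, Sdf2l1, Pdia3, Pdia4 and P4hb followed and Dnajb9 did not. The part of role in these counts was not tested.

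The counts depended on which libraries were kept. With 1 library left out, 10 to 23 of these genes followed Hspa5, the most without B16F10 replicate 5 (23, beside 15.2% of all genes). The counts fell for these and for all genes without lane 2 and without B16F0 replicate 1. Without lane 2, 6 of the genes followed Hspa5, all chaperones, beside 0.508% of all genes. Without B16F0 replicate 1, 10 followed, all chaperones, beside 2.65% of all genes. The 3 libraries highest in Hspa5, B16F10 replicate 3 and B16F0 replicates 1 and 2, also had the highest melanocytic scores (mean log2 CPM of the markers) at 9.21, 9.19 and 9.32, against 8.35 to 8.99 in the other 9. Their ribosomal Rn45s shares were 0.211%, 0.0218% and 0.127%, each below those of the other 9 libraries, which reached 31.4% in B16F10 replicate 5. The part of melanocytic RNA or of library quality in this shared movement was not tested.

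Asns was a second leading gene. Of 32 genes, 19 followed it and 2 went against it. Over all genes, 17.2% followed Asns and 2453 of 13533 went against it. The followers were 13 of 15 chaperones, without Calr and Dnajb9, and Herpud1, Derl1, Eif2ak3, Atf6, Xbp1 and Trib3. Of 22 alternative settings, the call was lost in 13 for Xbp1, 12 for Atf6 and 10 for Eif2ak3, beside at most 7 for each other follower. Among the 5 other Atf4 targets only Trib3 passed, with a slope of 0.60 (limma adjusted p of 0.0227), while Ppp1r15a, Sesn2 and Ddit3 had slopes of 0.0016, 0.0043 and 0.044. Derl3, with a slope of -1.66, and Ern1, with -0.28, ran against it. The Ern1 slope had a limma adjusted p of 0.0497. Its call was lost in 13 of 22 alternative settings, and its sign changed in 1. The Derl3 call was lost in 4 of 22, and its sign changed in 1. Derl3 had only 7, 2 and 1 counts in B16F10 replicate 3 and B16F0 replicates 1 and 2, the libraries highest in Asns. Without lane 2 the followers were 7, beside 7.71% of all genes, and without B16F0 replicate 1 they were 10, beside 11.7%.

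Ddit3, in contrast, led no gene at an adjusted p under 0.05. At an unadjusted p under 0.05, 1.82% of all genes had a positive slope on Ddit3, and 3 of the 33 did, all Atf4 targets. These were Sesn2 (slope 0.54, unadjusted p of 0.0174), Ppp1r15a (0.55, 0.0261) and Trib3 (0.74, 0.04999). Chac1 had 0.57 (0.0885), Atf4 0.39 (0.0507) and Asns 0.13 (0.796). Whether the slopes of a gene on Hspa5 and on Ddit3 differ was not tested.

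**Figure D5:**
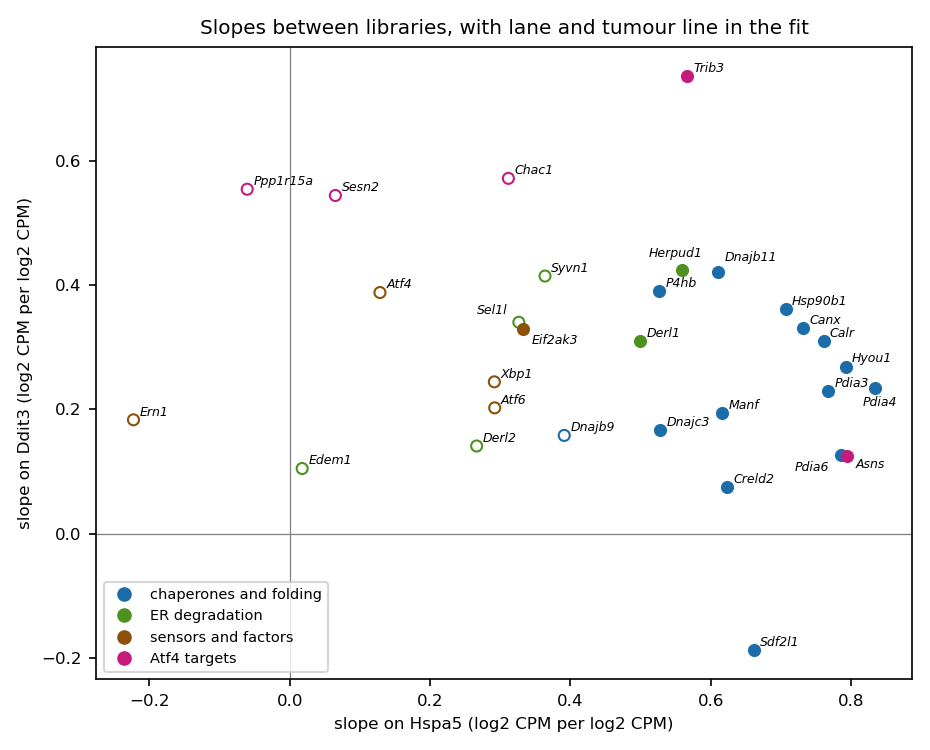
Slope of log2 CPM on Hspa5 (horizontal axis) against slope on Ddit3 (vertical axis), both in log2 CPM per log2 CPM with lane and line in the fit, for 30 of the 33 genes, coloured by role and filled where the slope on Hspa5 had an adjusted p under 0.05. The chaperones lie to the right, Ppp1r15a and Sesn2 lie near 0 on Hspa5 and at 0.55 and 0.54 on Ddit3, and Derl3 (slope -1.01 on Hspa5, 0.16 on Ddit3) and the leading genes are not drawn.

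An endothelial score was formed as the average log2 CPM over the 20 pan-endothelial markers. None of the 33 genes had a limma slope on it with an adjusted p under 0.05, beside 5.65% of all genes in either direction. The score was 5.48 ± 0.99 in B16F10 and 5.51 ± 1.02 in B16F0. All 15 chaperones had negative slopes, with a median of -0.31 and a range from -0.46 for Sdf2l1 to -0.13 for Calr, against a median of -0.0086 over all genes. At an unadjusted p under 0.05, 9 of the 33 genes had a negative slope, beside 10.2% of all genes, and 1, Derl3, had a positive slope, beside 11.4%. Asns had -0.50 and Derl3 0.83. Without lane 2, 7 of these genes were called, all with negative slopes, beside 10.2% of all genes in either direction. Without B16F0 replicate 1, 13 were called, 12 with negative slopes and 1 with a positive one, beside 14.7% of all genes.

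Between lanes 1 of the 33 genes differed, beside 3.14% of all genes. Edem1 (chr6:108828641-108859356, plus strand) was higher on lane 6 than on lane 1 by 0.97 on the log2 scale and on lane 2 than on lane 1 by 0.11, with an edgeR adjusted p of 0.0433. Its lane 6 libraries held 590, 879 and 1150 CPM in B16F10 and 796 and 941 CPM in B16F0, and all libraries of lanes 1 and 2 lay between 356 and 519 CPM. Ddit3 missed the threshold at an edgeR adjusted p of 0.0527, with lane 6 above lane 1 by 0.91. Ern1 (0.0623), Manf (0.0789), Atf4 (0.0819), Sesn2 (0.0903) and Creld2 (0.0987) had the next smallest adjusted p. The Edem1 call was lost in 10 of 19 alternative settings, and without B16F0 replicate 1 the lanes differed for 7 of the 33 genes. The share of all genes in that setting is not given here, so the 7 are not read as particular to the 33. The sources used here do not say what else differed between the lanes.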

How the data were processed

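The table of raw counts deposited by the authors has 1 row per symbol and 12 libraries. Per the submitters' processing notes the build was mm10, and the tools were R 3.3.2 with edgeR, featureCounts 1.6.0, STAR 2.2.1 and cutadapt 1.16. The sources used here give neither annotation nor strand setting for the counting, so overlapping genes may share reads. Lanes were read from the library names. Counts were filtered with filterByExpr (minimum count 10), scaled by TMM and tested with edgeR 4.0.16 (quasi-likelihood F test, R 4.3.3) with lane and line as factors, Benjamini-Hochberg adjusted over 13534 genes. The SE was taken from the log2 fold change and its F value. Slopes used limma 3.58.1 on voom log2 CPM. DESeq2 1.42.0 was an alternative. The 33 genes and all lists were chosen with earlier results of these data known. Values by library (lowest, median and highest in B16F10, every library in B16F0) are given for the 5 genes with the smallest p, the highest and lowest of each role per length, and genes discussed in the lane and slope tests. Alternatives left out each library, or changed the scaling, filter, model or covariates, and those that moved a count are in the closing section. No libraries were duplicates by a chi-square comparison of their counts.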

Additional observations from a re-analysis of the deposited data

Results flagged for a closer look

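Of 66 groups of values (33 genes in each line), 2 held a library that stood apart from the others of its line. The rule was Dixon's criterion at 95% on log2 CPM, and chance gives about 1 in 20. The values below are in CPM. Asns was 313.8 CPM in B16F10 replicate 3, against 70.2 to 131.9 CPM in the other 6 B16F10 libraries. B16F0 replicate 1 held 658.1 CPM of Atf6, while the remaining 4 libraries of B16F0 ranged from 374.6 to 429.2 CPM.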

How the results depend on the processing

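In 23 of 29 alternative settings 0 of the 33 genes were called between the lines. Exceptions were 5 with the library name prefix in place of the lane, 5 with limma-voom and quality weights, and 1 each with DESeq2, the melanocytic covariate, without lane 2 and, among leave-one-out settings (0 to 1), without B16F0 replicate 1. Calls over all genes, 375 in the chosen model, were 58 with the replicate block in place of lane, 630 with the prefix, 852 with DESeq2, 669 with quality weights, 643 at a false discovery rate of 0.1, 589 with the melanocytic covariate, 177 without lane 2 and 236 without the libraries rich in Rn45s. Leaving out 1 library gave 203 (without B16F0 replicate 4) to 446, with 241 without B16F0 replicate 5 and 249 without B16F0 replicate 1. Replicate numbers do not pair the libraries: same-numbered deviations correlated at -0.29 to 0.32 and only number 5 matched its own number best, and the block called 0 of the 33. The median of the 6 Atf4 targets stayed positive in every setting run (0.46 to 0.72), whereas that of the chaperones changed sign (-0.19 to 0.57).

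Genes differing between lanes, 1 in the chosen model, numbered 2 with RLE scaling, upper quartile scaling, a CPM filter, limma-voom or Rn45s left out, 0 without the Rn45s-rich libraries, and 0 to 7 when 1 library was left out. The shares of all genes differing between lanes in these settings are not given here. Followers of Hspa5, 18, were 6 without lane 2 (beside 0.508% of all genes) and 10 to 23 with 1 library left out. Followers of Asns, 19, were 8 without a lane term (beside 18% of all genes) and 0 with Ddit3 as the leading gene (beside 0%). They were 12 with the endothelial covariate (beside 7.32%), 7 without lane 2 (beside 7.71%) and 10 to 20 with 1 library left out. With Ddit3 leading, the slopes of Sdf2l1 (-0.19 ± 0.39, SE), Derl3 (0.16 ± 1.04) and Ern1 (0.18 ± 0.21) had the opposite sign to those on Asns. Each was smaller than its SE, so no reversal is shown. Genes with a called slope on the endothelial score in either direction were 0 in the chosen model. They were 7 without lane 2 (beside 10.2% of all genes) and 7 without the Rn45s-rich libraries (beside 19.3%), all negative. With 1 library left out they were 0 to 13, at most 1 of them positive, the 13 beside 14.7% without B16F0 replicate 1. The causes were not tested. Derl3 had only 1 to 34 counts per library, so its values are the least precise in counting terms.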
